A study of Mus musculus with 70 samples.

Results

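The genes described here were 6 STAT transcription factors, Stat2, Stat3, Stat4, Stat5a, Stat5b and Stat6, and 3 feedback inhibitors of cytokine signaling, Socs1, Socs3 and Cish. These 9 genes were chosen by name from the 53465 gene IDs of the count table and were followed across all 14 sorted populations of regulatory T cells (Tregs). RNA sequencing had been performed on Tregs of 5 male Foxp3YFP-cre mice (allele Foxp3tm4(YFP/icre)Ayr on a B6 background), 16.6 to 18.6 weeks of age, in which the Foxp3 locus also drives a YFP-Cre fusion protein; the labels name no floxed allele and no treatment. ST2+ CD44hi and ST2- CD44hi Tregs were sorted from blood, spleen, lungs, colon, back skin and the visceral adipose tissue of the abdomen (VAT), and ST2- CD44lo CD62L+ Tregs from spleen and lungs. ST2 is the receptor for the cytokine IL-33, CD44hi marks effector Tregs, and CD44lo CD62L+ marks central Tregs. Each mouse contributed 1 library to each group, so n counts mice. Of 70 libraries, 67 had more than 1000000 counts and were used, which left 4 libraries of ST2+ CD44hi Tregs from blood, 3 from colon and 5 in every other group.

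The 67 libraries held 1304560 to 2759926 counts (median 2039002), and 60 of them came from 220 sorted cells and 7 from fewer, down to 55. Each of the 9 genes had counts in all 67 libraries. The lowest count of any of them in a library was 13, for Stat5a. The 8 markers of T cells and Tregs, Foxp3, Cd4 and Cd3e among them, were present in every group, with a summed level of 2927 to 6308 counts per 1000000 counts (CPM). The 3 colon ST2+ CD44hi libraries stood apart, with 1085 to 1300.3 CPM summed over 8 myeloid markers, although the sort gate excluded CD11b+ cells, against at most 216 CPM in any other library. Their summed level of 5 fibroblast markers was 305 to 970.2 CPM. This overlapped colon ST2- CD44hi libraries, at 6.82 to 677 CPM, and skin ST2- CD44hi libraries, at 38.7 to 705 CPM. In skin, 8 epithelial and keratinocyte markers summed to 136 to 1094 CPM in ST2+ and 86.3 to 1154 CPM in ST2- CD44hi libraries. In colon they summed to 210 to 1020 CPM and 56.8 to 764 CPM. A list of 18 genes known to rise during tissue dissociation followed the organs, with group medians of 2399 to 3083 CPM in blood and spleen, which were not digested with enzymes, 5749 to 7166 CPM in lungs, 6850.2 and 10817 CPM in ST2- and ST2+ Tregs of VAT, 9089 and 10565 CPM in colon, and 10216 and 10692 CPM in skin, which had the longest digestion. The part of other cells and of digestion in the differences between organs below was not tested, and in RNA of sorted pools a change in how many cells transcribe a gene cannot be told apart from a change per cell.

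STAT proteins are latent transcription factors of the cytoplasm. When a cytokine binds its receptor, JAK kinases at the receptor tails phosphorylate STATs, which pair, enter the nucleus and bind DNA. STAT5A and STAT5B carry the IL-2 signal on which Foxp3 expression and Treg survival depend, STAT3 relays cytokines of the IL-6 and IL-10 families, STAT4 relays IL-12, STAT6 relays IL-4 and IL-13, and STAT2 is a subunit of the complex that answers type I interferon. CIS, the product of Cish, and the SOCS proteins are induced by this signaling and then block it at the receptor or kinase, which closes a negative feedback loop. Messenger RNA reports on the amount of transcript and not on phosphorylation.

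The feedback genes are textbook STAT targets. The promoters shown are those of Cish and Socs3, the feedback genes with a match to the motif below. The window of Socs1 had no match and is not shown. Sequences are those of RefSeq (GRCm38.p6), from 250 bases before to 50 bases after a start site, on the strand of the gene. Capitals mark matches to TTCNNNGAA, the palindrome that STAT dimers bind, which reads the same on both strands. All 9 genes had a promoter entry.
Cish, chr9:107296409-107296708, plus strand: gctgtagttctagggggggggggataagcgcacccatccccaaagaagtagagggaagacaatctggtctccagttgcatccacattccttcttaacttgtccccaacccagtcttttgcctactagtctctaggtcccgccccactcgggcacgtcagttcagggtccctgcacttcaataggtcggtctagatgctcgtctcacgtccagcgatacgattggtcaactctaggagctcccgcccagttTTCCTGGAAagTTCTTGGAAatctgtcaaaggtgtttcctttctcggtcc
Socs3, chr11:117969317-117969616, minus strand: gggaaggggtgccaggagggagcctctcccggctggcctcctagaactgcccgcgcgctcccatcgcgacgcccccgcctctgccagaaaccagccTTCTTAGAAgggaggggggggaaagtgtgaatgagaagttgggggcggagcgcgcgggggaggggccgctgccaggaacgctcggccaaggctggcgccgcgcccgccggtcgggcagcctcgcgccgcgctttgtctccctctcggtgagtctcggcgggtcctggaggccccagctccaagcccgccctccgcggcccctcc
The Cish window held 2 matches, TTCCTGGAA from position 1 and TTCTTGGAA from position 12 counted from the start site, and the Socs3 window held 1, TTCTTAGAA from position -154. Among 32851 promoter windows of the same length, 8.3% held at least 1 match and 0.457% held 2 or more. The Stat2 window had no match to this motif and 1 to the form with 1 more base in the spacer (TTCCCTAGAA from position -210), which 6.95% of windows held. Neither form was found in the windows of Stat3, Stat4, Stat5a, Stat5b, Stat6 and Socs1. A match is a description of these letters and was not tested for binding.

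Levels were compared between genes per length of exon, as CPM per kilobase. On that scale Stat3 led in skin, at 145 ± 8.5 in ST2+ and 122 ± 7.32 in ST2- CD44hi Tregs (SD, n = 5 each), whereas Stat6 led in spleen and lungs, at 80.6 ± 8.56 in spleen and 91.9 ± 19.7 in lungs for ST2+ Tregs (SD, n = 5 each). Stat2 was among the least abundant, at 7.8 ± 1.65 in colon ST2+ (SD, n = 3) to 24.5 ± 3.45 in spleen CD44lo CD62L+ Tregs (SD, n = 5). The length counted all exon bases annotated for a gene, 9527 for Stat3 and 4402 for Stat6, so the order between genes depends on it. In CPM alone, spleen ST2+ Tregs held a mean of 440 for Stat3 and 355 for Stat6. All further levels are CPM after scaling by trimmed mean of M values (TMM), compared within a gene. The plot of each gene by library shows all 67 values.

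**Figure D1:**
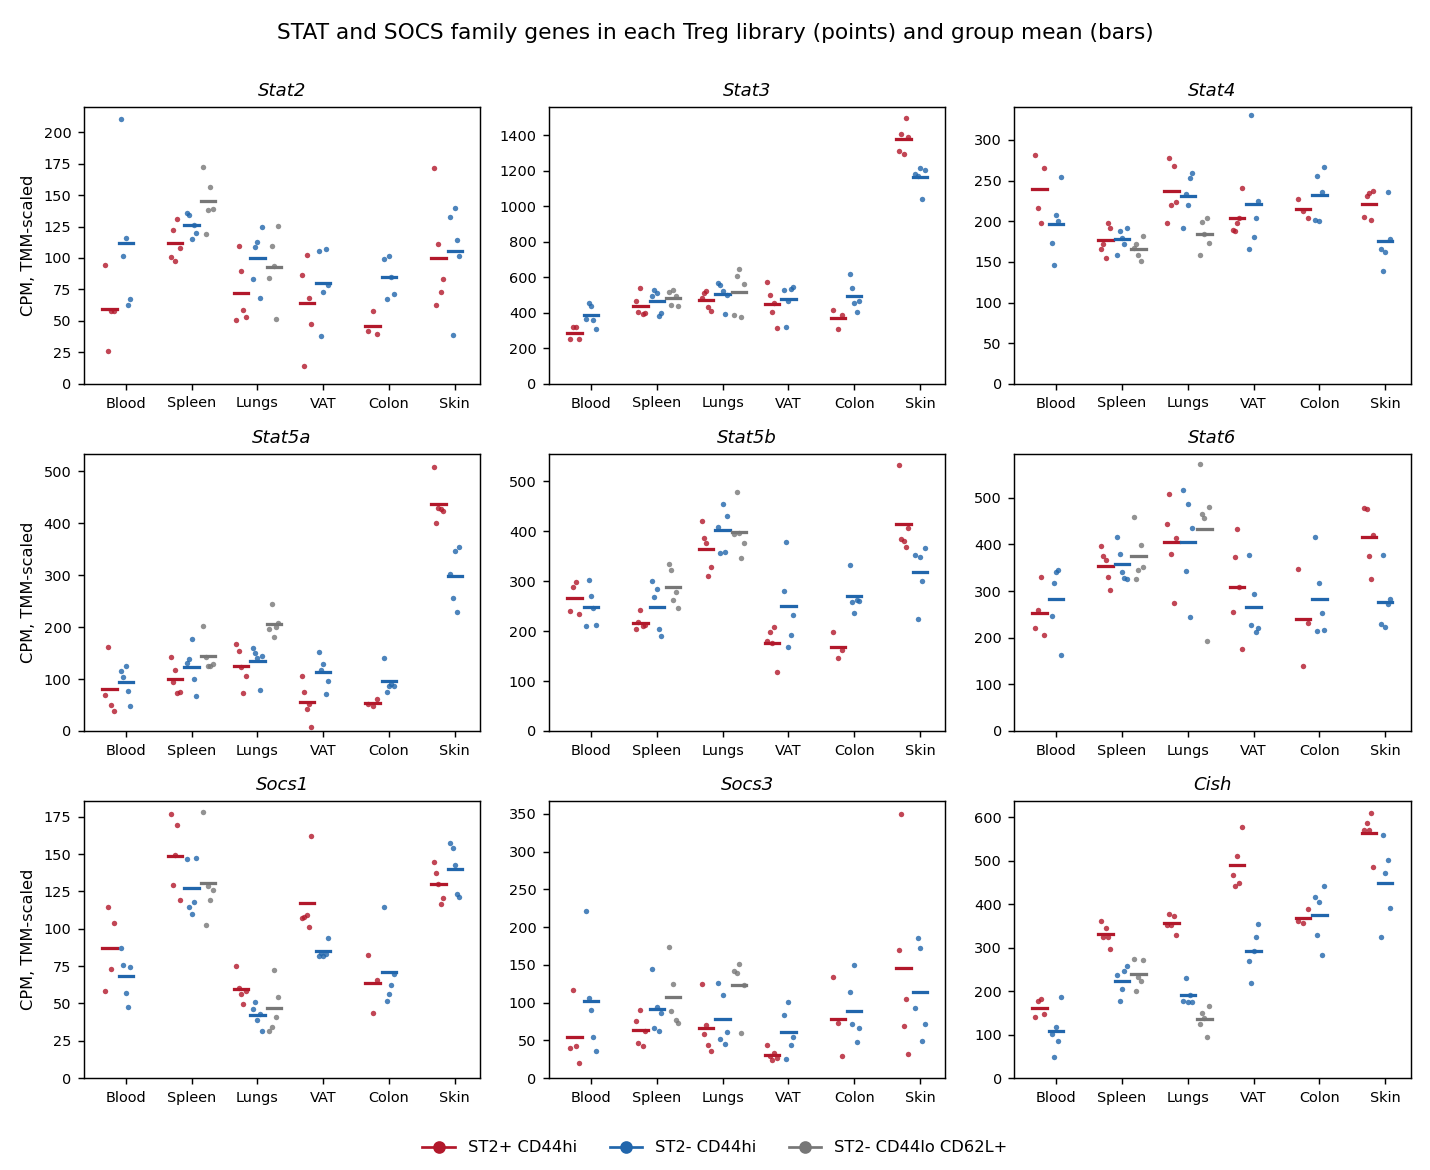
CPM (y axis, linear from 0, its own range for each gene) of the 9 genes in each of 67 libraries by tissue (x axis), with ST2+ CD44hi in red, ST2- CD44hi in blue and ST2- CD44lo CD62L+ in gray; points are libraries and bars are group means. Skin libraries stand above all others for Stat3, and Cish is lowest in blood and in CD44lo CD62L+ Tregs of lungs.

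Which of these genes differ between tissues was asked first. In a test over the 6 tissues (edgeR quasi-likelihood, adjusted p at most 0.05 over 13179 genes), 8 of the 9 genes differed in ST2+ CD44hi Tregs, where 47.6% of all tested genes did, and 6 of 9 in ST2- CD44hi Tregs, where 43.5% did. Stat3, Stat5a, Stat5b, Socs1 and Cish passed in both populations. Stat4 missed in ST2+ Tregs (adjusted p = 0.0552), and Stat2, Stat6 and Socs3 missed in ST2- Tregs (adjusted p = 0.454, 0.0906 and 0.605). Pairs of tissues were then compared, with a fold change of at least 1.5 and an adjusted p of at most 0.05. Over 30 tissue pairs, 79 of 270 gene comparisons passed, against 11.9% of all genes. Skin took part in 44 of them, out of 90 comparisons with skin, and in each of the 44 the level was higher in skin. The background was 22.8% of genes for the 10 pairs with skin, 11.5% counting only genes higher in skin, and 6.46% for the 20 pairs without it, where 35 of 180 comparisons of these 9 genes passed. Without the colon libraries 59 comparisons passed, out of fewer pairs.

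Stat3 (ENSMUSG00000004040, chromosome 11, 100885098 to 100939540, GRCm38) set the skin apart. It was at 1314, 1410.2, 1296, 1498 and 1393 CPM in the 5 skin ST2+ libraries and at 1184, 1174, 1216, 1043 and 1204 CPM in the 5 skin ST2- CD44hi libraries. The other 57 libraries ranged from 254 to 648 CPM (median 456), so the lowest skin library lay above all of them. In ST2+ Tregs the gene was 4.82-fold higher in skin than in blood (SE 0.16 on the log2 scale, adjusted p = 5.16e-18) and 2.93-fold higher than in lungs (SE 0.14 on the log2 scale, adjusted p = 4.10e-13), the smallest of its 5 skin differences. In ST2- CD44hi Tregs the 5 skin differences ran from 2.29-fold against lungs to 3.02-fold against blood, and all 10 passed. Outside skin, blood ST2+ Tregs were lowest, at 287 ± 37.3 CPM (SD, n = 4), and Stat3 was higher than there in spleen (1.53-fold), lungs (1.65-fold) and VAT (1.57-fold) of the ST2+ population.

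Stat5a (ENSMUSG00000004043, chromosome 11, 100859351 to 100885169), the neighbor of Stat3 on the opposite strand, was also highest in skin. Its 5 skin ST2+ libraries held 508, 399.9, 429, 427 and 424 CPM. The skin ST2- CD44hi libraries held 303, 255, 346, 230.0 and 355 CPM, which overlapped only the highest library of lungs CD44lo CD62L+ Tregs, at 245 CPM. Stat5a was called higher in skin in all 10 comparisons, from 2.21-fold against lungs in ST2- CD44hi (SE 0.31 on the log2 scale, adjusted p = 0.00427) to 8.11-fold against colon in ST2+ Tregs (SE 0.41 on the log2 scale, adjusted p = 1.14e-07). Outside skin its mean ran from 53.9 ± 7.2 CPM in colon ST2+ (SD, n = 3) to 206 ± 23.9 CPM in lungs CD44lo CD62L+ Tregs (SD, n = 5). On the log2 scale it was most scattered in VAT ST2+ Tregs, at 106, 75.1, 41.8, 52.4 and 8.31 CPM. Stat3 and Stat5a share 72 exon bases on opposite strands, and the libraries did not keep strand, so reads of those bases cannot be assigned to either.

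Stat5b (ENSMUSG00000020919, chromosome 11, 100780731 to 100850724), the close paralog of Stat5a, followed another order. It was high in lungs, at 420.2, 387, 377, 311 and 328 CPM in ST2+ and 409, 356, 455, 359 and 429.9 CPM in ST2- CD44hi libraries, and in skin ST2+ Tregs, at 534, 385, 380.3, 369 and 407 CPM. It was low in ST2+ Tregs of VAT, at 179.9, 198, 176, 208 and 118 CPM, and of colon, at 198, 147 and 162 CPM. The lungs and skin ST2+ libraries did not overlap those of VAT and colon. Among ST2+ Tregs it was 2.07-fold higher in lungs than in VAT (SE 0.15 on the log2 scale, adjusted p = 2.85e-06) and 2.46-fold higher in skin than in colon (SE 0.19 on the log2 scale, adjusted p = 4.21e-07). In ST2- CD44hi Tregs the lungs were higher than blood, spleen and VAT by 1.62-fold, 1.61-fold and 1.61-fold, and none of the 5 skin comparisons passed.

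The balance of the STAT5 genes was also followed by organ. Per length of exon, Stat5b exceeded Stat5a in every group, by a mean ratio of 2.49 in lungs CD44lo CD62L+ Tregs to 6.89 in VAT ST2+ Tregs outside skin. The VAT ST2+ ratios were widely scattered, at 2.38 ± 1.14 on the log2 scale (SD, n = 5). Their highest, 4.20 on that scale, came from the library with the lowest Stat5a, at 8.31 CPM, and it raised the mean ratio. In skin the mean ratio was 1.22 in ST2+ and 1.39 in ST2- CD44hi Tregs. On the log2 scale the skin ratios were 0.28 ± 0.11 and 0.46 ± 0.22 (SD, n = 5 each), and the lowest group mean elsewhere was 1.31 ± 0.13 (SD, n = 5). This ratio was described and not tested, and reads that fit both paralogs make the split between them uncertain. The ratio also depends on the lengths used, 7133 annotated exon bases for Stat5a and 5539 for Stat5b. In CPM alone, mean Stat5a was above mean Stat5b in skin ST2+ Tregs, at 438 against 415.

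**Figure D2:**
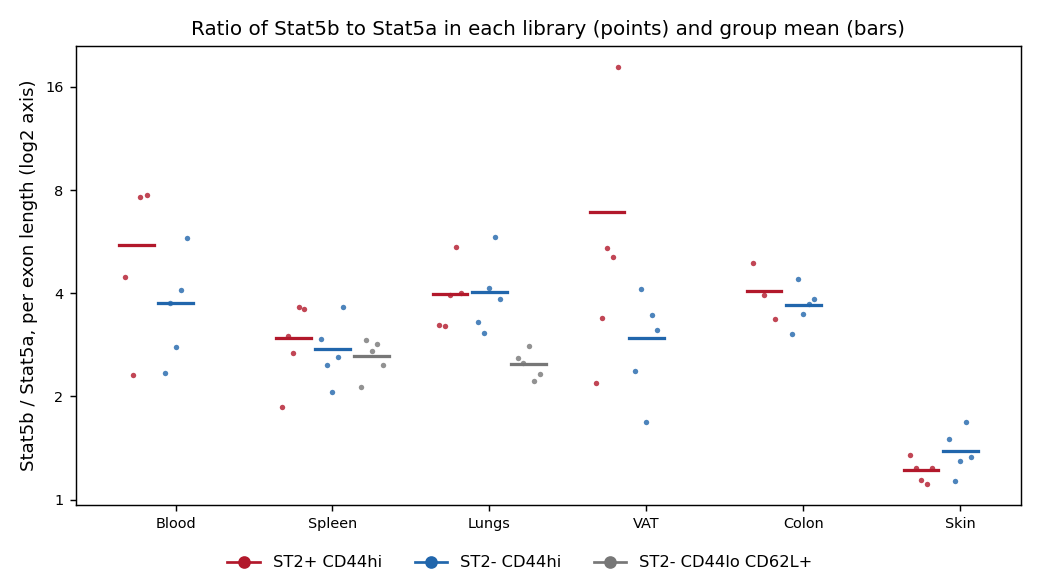
Ratio of Stat5b to Stat5a per exon length (y axis, log2 scale) in each of 67 libraries by tissue (x axis), with populations colored red for ST2+ CD44hi, blue for ST2- CD44hi and gray for ST2- CD44lo CD62L+; bars are group means of the ratio. Both skin groups lie lowest, at mean ratios of 1.22 and 1.39.

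The remaining STAT genes passed in few comparisons. Stat6 (ENSMUSG00000002147, chromosome 10, 127642986 to 127660957) passed in 2 of 30 tissue pairs, both in ST2+ Tregs, where skin at 415 ± 65.4 CPM (SD, n = 5) was 1.64-fold above blood (SE 0.24 on the log2 scale, adjusted p = 0.0217) and 1.73-fold above colon (SE 0.27 on the log2 scale, adjusted p = 0.0315), with overlapping libraries. Stat2 (ENSMUSG00000040033, chromosome 10, 128270559 to 128292849) passed in 2 of 30, as its 3 colon ST2+ libraries at 41.7, 57.5 and 39.5 CPM lay below those of spleen (2.43-fold, SE 0.40 on the log2 scale, adjusted p = 0.0275) and skin (2.18-fold, SE 0.40 on the log2 scale, adjusted p = 0.0375). Those colon libraries are the ones with the highest sums of myeloid markers. The tissue effect on Stat2 in ST2+ Tregs was lost without colon (adjusted p = 0.0887) and without mouse 1, 4 or 5 (0.0687, 0.123 and 0.0807). That on Stat6 was lost without mouse 2, 3 or 5 (adjusted p = 0.132, 0.102 and 0.0795), and in ST2- CD44hi Tregs it passed without mouse 4 (0.0414) or without colon (0.0436). Stat4 (ENSMUSG00000062939, chromosome 1, 51987148 to 52107189) passed in none of 30 and kept within 139 to 331 CPM over all 67 libraries. Its tissue effect in ST2+ Tregs, which missed in the main fit, passed with the mouse as a block (adjusted p = 0.0292) and with DESeq2 (0.0464). It also passed with voom with quality weights (0.0135), with all 70 libraries (0.0143) and without colon (0.0415). The effect in ST2- CD44hi Tregs was lost without mouse 2, 3 or 5 (0.0883, 0.0723 and 0.0958) and with all 70 libraries (0.0707).

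Cish (ENSMUSG00000032578, chromosome 9, 107296026 to 107302784), which encodes the STAT5-induced inhibitor CIS, passed in 19 of 30 tissue pairs, the most of the 9 genes. In ST2+ CD44hi Tregs it was lowest in blood, at 139, 177, 181 and 148 CPM, intermediate in spleen at 362, 325, 345, 325 and 297 CPM, in lungs at 351, 377, 353, 374 and 330.1 CPM and in colon at 361, 356 and 388 CPM, and highest in VAT at 468, 443, 511, 449 and 577 CPM and skin at 572, 586, 569.8, 609 and 485 CPM. No blood library overlapped one of another tissue in this population. Blood was below skin by 3.49-fold (SE 0.19 on the log2 scale, adjusted p = 7.00e-12) and below spleen by 2.05-fold (SE 0.18 on the log2 scale, adjusted p = 0.000114). In ST2- CD44hi Tregs blood was again lowest, at 102, 49.4, 116, 84.7 and 187 CPM, with lungs at 177, 231, 176, 191 and 175 CPM, spleen at 238, 177, 204, 247 and 257 CPM, VAT at 269.8, 219, 292, 324 and 354 CPM, colon at 416, 330.1, 406, 282 and 441 CPM and skin at 324, 560.1, 472, 502 and 392 CPM. Blood was 4.16-fold below skin here (SE 0.17 on the log2 scale, adjusted p = 5.34e-15). In CD44hi Tregs, mean Cish and the group median of the dissociation list were both lowest in blood and highest in VAT, colon and skin. In ST2+ Tregs, Cish of colon and lungs was close, at 368 and 357 CPM, with the list at 10565 and 7166 CPM. Between spleen and lungs the orders were opposite. In ST2- CD44hi Tregs mean Cish was at 225 and 190 CPM and the list at 2549 and 5749 CPM. In CD44lo CD62L+ Tregs mean Cish was at 240 and 135 CPM and the list at 2399 and 5798 CPM. The relation was not tested. Between blood and spleen, with medians of the dissociation list of 2435 and 2549 CPM in ST2- CD44hi Tregs, Cish was 2.08-fold higher in spleen (SE 0.17 on the log2 scale, adjusted p = 1.73e-05).

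Socs1 (ENSMUSG00000038037, chromosome 16, 10782240 to 10785536), which inhibits JAK kinases, had another order, with spleen and skin high and lungs low. In ST2- CD44hi Tregs it was at 147, 114, 110.0, 118 and 147 CPM in spleen and 157, 154, 143, 123 and 121 CPM in skin against 46.6, 50.9, 38.8, 42.8 and 31.7 CPM in lungs, and neither overlapped the lungs. Spleen was 3.03-fold above lungs (SE 0.21 on the log2 scale, adjusted p = 3.26e-08) and skin 3.33-fold above lungs (SE 0.21 on the log2 scale, adjusted p = 1.26e-09). In ST2+ Tregs the same contrasts were 2.48-fold (SE 0.20 on the log2 scale, adjusted p = 2.49e-06) and 2.17-fold (SE 0.20 on the log2 scale, adjusted p = 2.24e-05). Socs1 passed in 17 of 30 pairs, and skin did not pass against spleen in either population. Low levels were not confined to lungs. In ST2+ Tregs mean Socs1 was at 64 CPM in colon and 59.8 CPM in lungs, with blood at 87.3 and VAT at 118 CPM. In ST2- CD44hi Tregs the means of blood, colon and VAT were 68.3, 71 and 84.9 CPM.

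Socs3 (ENSMUSG00000053113, chromosome 11, 117966079 to 117970047), the inhibitor of gp130 receptor signaling, varied more between mice than between most tissues. In skin ST2+ Tregs it was at 169.7, 350.2, 68.7, 105 and 32.2 CPM in mice 1 to 5, and in VAT ST2+ Tregs at 43.4, 29.8, 23.4, 32.6 and 26.8 CPM. Skin ST2+ Tregs passed against blood (2.67-fold, adjusted p = 0.0278), spleen (2.28-fold, adjusted p = 0.0426) and VAT (4.63-fold, adjusted p = 0.000378), each with overlapping libraries, and no pair passed in ST2- CD44hi Tregs. Without mouse 2, which had the highest skin library, the tissue effect in ST2+ Tregs did not pass (adjusted p = 0.195), nor did it with voom with quality weights, the method of the study (adjusted p = 0.264).

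**Figure D3:**
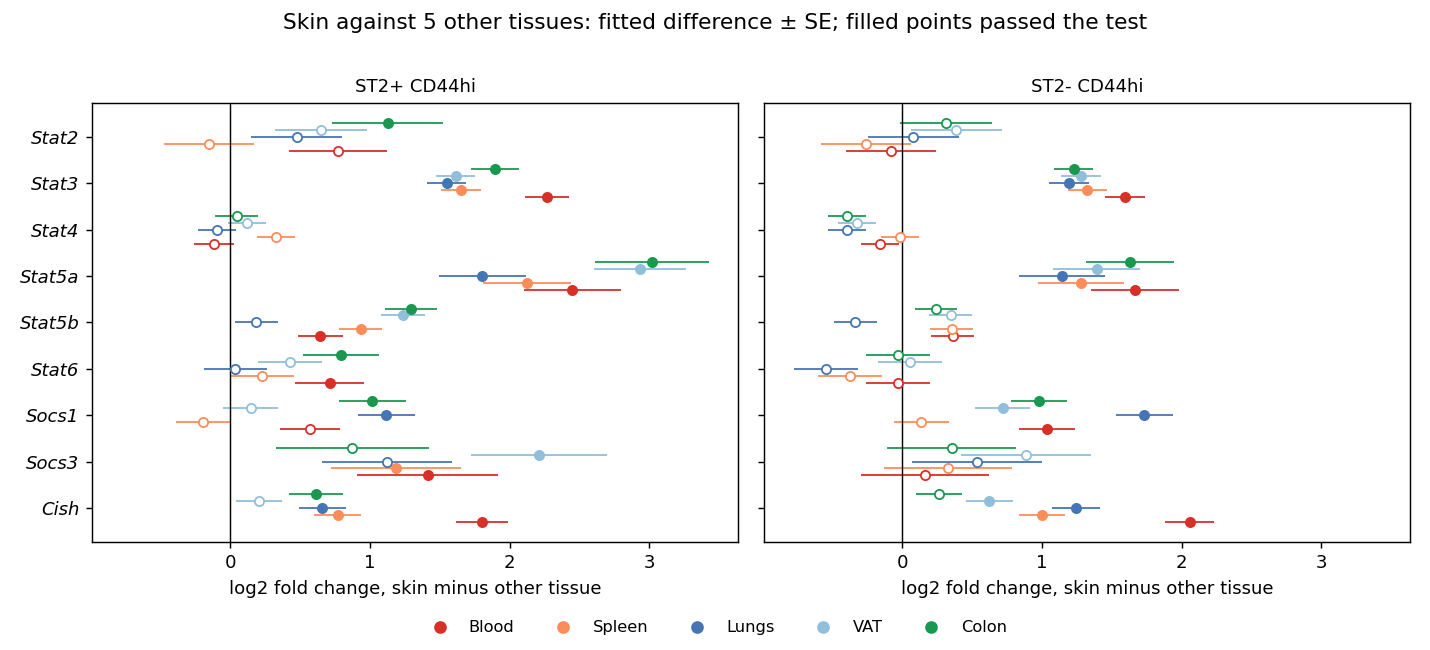
Fitted log2 fold change of skin against each of 5 other tissues (x axis, skin minus the other) for the 9 genes (y axis) in ST2+ (left) and ST2- CD44hi Tregs (right); bars are ± 1 SE, colors are the other tissue, and filled points passed the test. Stat3 and Stat5a are filled in all 10 comparisons and Stat4 in none.

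Splitting the variance of log2 CPM over the 57 CD44hi libraries is given as a description. Tissue took 87.5% for Stat3, 75.9% for Socs1, 70.9% for Cish, 62.3% for Stat5a and 58.8% for Stat5b, against a median of 27.9% over all tested genes. It took 30.1% for Stat6, 26.7% for Stat4, 21.7% for Socs3 and 21% for Stat2, of which the last 3 lie below that median. For Socs3 the mouse took 31.8%, against a median of 6.10%. ST2 took 14.3% for Cish and 12.4% for Stat2, against a median of 1.15%. When the 14 groups were put in order of their mean log2 CPM, 1 of 117 neighboring pairs over the 9 genes differed at an adjusted p of at most 0.05. Neighbors are the closest groups by construction, so this count is not to be read against the 14.5% of all genes that differed over all 91 pairs of groups. The pair that differed was the step for Stat3 from skin ST2- CD44hi down to lungs ST2- CD44hi Tregs. For every other pair of neighbors the difference did not pass.

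ST2+ and ST2- CD44hi Tregs of the same tissue were compared next, to ask which of these genes differ with ST2. Of 54 comparisons 2 passed, against 1.42% of all genes, with 19 at an unadjusted p under 0.05. Both were Cish, which was higher in ST2+ Tregs. In lungs, Cish was at 351, 377, 353, 374 and 330.1 CPM in ST2+ and 177, 231, 176, 191 and 175 CPM in ST2- CD44hi libraries, with no overlap (1.88-fold, SE 0.17 on the log2 scale, adjusted p = 0.000779; 0.774% of genes passed in lungs). In VAT the difference was 1.68-fold (SE 0.17 on the log2 scale, adjusted p = 0.003; 3.12% of genes passed), again with no overlap. The dissociation list was higher in the ST2+ libraries of both tissues, also with no overlap, at 6701 to 8487 against 4829 to 6609.8 CPM in lungs and 8424 to 11854 against 3945 to 7316 CPM in VAT, and its part in the Cish differences was not tested. Without the libraries of fewer than 220 cells, which leaves 1 VAT ST2- library whose spread is taken from the other groups, and without mouse 3, the VAT difference did not pass (log2 fold change 0.88 and 0.74, adjusted p = 0.152 and 0.0532). With all 70 libraries neither difference passed (log2 fold change 0.93 and adjusted p = 0.0979 in lungs, 0.75 and 0.109 in VAT). The libraries added in that setting held 3582 and 62333 counts from colon and 488666 from blood, and none came from lungs or VAT.

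In the other tissues, where 4.04% of genes passed in blood, 0.319% in spleen, 0.0683% in colon and 0.212% in skin, Cish did not pass. The spleen groups did not overlap, at 331 ± 24.6 against 225 ± 33.4 CPM (SD, n = 5 each; 1.47-fold, adjusted p = 0.197). The share of all genes whose groups do not overlap is not given for any comparison, so nothing is read from a lack of overlap alone. In blood the difference was 1.49-fold with an adjusted p of 0.0483, just under the fold threshold, and it passed with the mouse as a block (log2 fold change 0.60, adjusted p = 0.0351) and without mouse 5 (0.92, adjusted p = 0.00104). It passed in 7 of 19 alternatives, over which the log2 fold change ran from 0.34, with all 70 libraries, to 0.92 and the adjusted p from 0.00104 to 0.509. The block gave 4 calls in all, the fourth of them Stat5a, which was lower in VAT ST2+ Tregs (log2 fold change -1.04, adjusted p = 0.0142). Stat5a in VAT also passed without mouse 1 (adjusted p = 0.0332) and with DESeq2 (adjusted p = 0.0282). Without mouse 2, Stat2 passed in blood, lower in ST2+ Tregs (log2 fold change -1.27, adjusted p = 0.0208). In colon Cish was at 368 ± 17.3 CPM (SD, n = 3) against 375 ± 66.4 CPM (SD, n = 5), and in skin at 564 ± 47.2 against 449.9 ± 93 CPM (SD, n = 5 each; adjusted p = 0.601). Within mice, Cish was higher in the ST2+ library in 24 of 27 mouse and tissue pairs, namely 5 of 5 in spleen, lungs, VAT and skin, 3 of 4 in blood and 1 of 3 in colon. Other genes also held 1 direction within mice in some tissues. Stat3, Stat5a, Stat5b and Stat6 were higher in the ST2+ library of skin in 5 of 5 mice, and Socs1 in 0 of 5. Socs1 was higher in 5 of 5 in lungs and in VAT, Stat5a in 0 of 5 in VAT and Socs3 in 0 of 5 in spleen. Stat2 and Stat3 were higher in 0 of 4 in blood. In colon, Stat2, Stat3, Stat5a, Stat5b and Stat6 were higher in 0 of 3. None of these differences of genes other than Cish passed in the main fit. The share of all genes with 1 direction in every mouse was not computed. Stat2 was higher in the ST2+ library in 5 of 27 pairs in all.

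**Figure D4:**
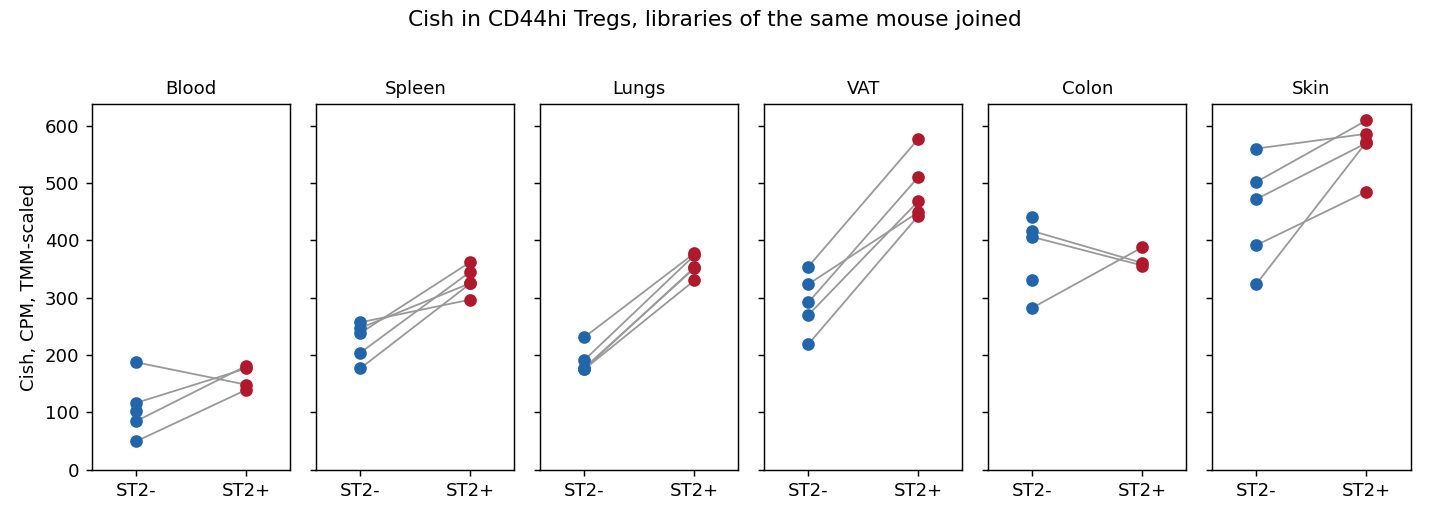
Cish in CPM (y axis, from 0) in ST2- (blue) and ST2+ (red) CD44hi Tregs of 6 tissues (panels), with gray lines joining libraries of the same mouse. The line rises from ST2- to ST2+ in 24 of 27 pairs, in every mouse of spleen, lungs, VAT and skin.

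Whether the ST2 difference depends on tissue was tested as an interaction, which 1.43% of all genes passed. Stat5b passed (adjusted p = 0.0269) and the other 8 did not, Cish among them (adjusted p = 0.194). Stat5b was lower in ST2+ than in ST2- CD44hi Tregs in colon, at 198, 147 and 162 against 332, 258, 235, 262 and 259.7 CPM with no overlap (1.59-fold), and in VAT (1.42-fold), and higher in skin, at 534, 385, 380.3, 369 and 407 against 353, 225, 348, 301 and 366 CPM with no overlap (1.3-fold), although none of these 3 passed alone (adjusted p = 0.19, 0.0481 with a fold under 1.5, and 0.413). Without mouse 3 or 4 the VAT difference passed (adjusted p = 0.0448 and 0.0364). With DESeq2 the colon difference passed (log2 fold change -0.65, adjusted p = 0.0475). The interaction was lost without any 1 of the 5 mice, without colon (adjusted p = 0.0956), with a covariate for how many cells were sorted and with limma's voom.

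In spleen and lungs, CD44hi Tregs were also set against CD44lo CD62L+ Tregs. For ST2- CD44hi Tregs none of 18 comparisons passed, against 5.29% of all genes, with 3 at an unadjusted p under 0.05 and 1 by voom, Stat5a in lungs. The share of all genes under that unadjusted p was not computed here either, so nothing is read from such counts. For ST2+ CD44hi Tregs 1 of 18 passed, against 9.61% of genes, with 5 at an unadjusted p under 0.05. This was Cish in lungs, at 357 ± 19.2 CPM against 125, 151, 138, 95.6 and 165 CPM in the CD44lo CD62L+ libraries (2.65-fold, SE 0.17 on the log2 scale, adjusted p = 2.73e-09). With the mouse as a block Stat5a in lungs passed as well, lower in ST2+ CD44hi (log2 fold change -0.78, adjusted p = 0.0326). Between the CD44lo CD62L+ Tregs of the organs, where 3.16% of genes passed, Socs1 was 2.81-fold higher in spleen (178, 102, 129, 119 and 126 against 31.6, 34.1, 72.2, 41 and 54.3 CPM, SE 0.20 on the log2 scale, adjusted p = 1.67e-07) and Cish 1.78-fold higher in spleen (SE 0.17 on the log2 scale, adjusted p = 0.000656), neither with overlap. Socs1 was thus low in lungs in all 3 populations.

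Other genes of the pathway were followed as lists. Among 4 JAK kinases, Jak2, the kinase of interferon gamma and gp130 receptors among others, differed between tissues in both populations and was higher in skin in all 10 comparisons, at 955 ± 45.1 CPM in ST2+ Tregs of skin against 369 ± 42.5 CPM in lungs (SD, n = 5 each). Jak1 differed in ST2- CD44hi (adjusted p = 0.00554) and Jak3 in ST2+ Tregs (adjusted p = 0.0243), and no JAK gene passed in an ST2 comparison. Of 6 other STAT and SOCS genes, 3 differed between tissues in ST2+ and 4 in ST2- CD44hi Tregs, Socs4 in both. Of 11 other brakes, 5 and 3 differed. Over all genes 47.6% and 43.5% differed, so nothing particular to these short lists is read from their counts. Ptpn6, which encodes the phosphatase SHP-1, was lower in skin in all 10 comparisons, at 92.4 ± 26.1 against 335 ± 26 CPM in spleen for ST2+ Tregs (SD, n = 5 each). Cblb, which encodes a ubiquitin ligase that restrains T cell activation, was lower in ST2+ Tregs of blood (2.23-fold, SE 0.22 on the log2 scale, adjusted p = 0.000383), VAT (2.53-fold, SE 0.20 on the log2 scale, adjusted p = 8.29e-06) and colon (2.2-fold, SE 0.24 on the log2 scale, adjusted p = 0.024), each without overlap. Pias4 and Ptpn1 differed between tissues in ST2+ Tregs (adjusted p = 0.00107 and 0.00854).

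Of 23 cytokine receptor genes, 19 differed between tissues in ST2+ and 22 in ST2- CD44hi Tregs, against 47.6% and 43.5% of all genes. Between ST2+ and ST2- CD44hi Tregs, 5 of the 23 passed in blood, 3 in spleen, 1 in lungs and 6 in VAT, and none in colon or skin. Of all genes 4.04%, 0.319%, 0.774% and 3.12% passed in blood, spleen, lungs and VAT. Il2ra, the high-affinity chain of the IL-2 receptor, was higher in ST2+ than in ST2- CD44hi Tregs of VAT, at 804 ± 259 against 259.7 ± 69.8 CPM (SD, n = 5 each; SE 0.16 on the log2 scale, adjusted p = 6.76e-11), and lower in blood (1.92-fold, SE 0.17 on the log2 scale, adjusted p = 0.000274). Il4ra was higher in skin in all 10 comparisons, Il6ra in 7 and Ifngr1 in 3. Receptor genes also went the other way, as Il15ra and Il27ra, named after their values were seen, were each lower in skin in 7 of 10. Among 8 STAT5-linked genes, Pim1, a kinase gene induced by STAT5, was higher in ST2+ Tregs of spleen, lungs and VAT (2.26-fold, 1.61-fold and 1.71-fold), and Bcl2, a survival gene, was lower in blood (4.78-fold) and VAT (1.93-fold). The median log2 difference of the STAT5-linked list ran from -0.49 in blood to 0.15 in VAT, against 0 and -0.0062 over all genes.

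Of 10 STAT3-linked genes 6 passed between ST2+ and ST2- CD44hi Tregs in blood, where 4.04% of all genes did, 2 passed in VAT, against 3.12%, and none in the other tissues. In blood Batf (2.1-fold) and Maf (3.6-fold), transcription factors of effector T cells, were higher in ST2+ Tregs and Il6st, which encodes gp130, was lower (3.83-fold). Il10 also passed in blood. In VAT Il10 was higher (3.67-fold) and Il6st was again lower (1.86-fold). The median log2 difference of this list in blood was 0.35, against 0 over all genes. Of 7 STAT4-linked genes the chemokine receptor gene Cxcr3 was lower in ST2+ Tregs of skin (13.2-fold) and VAT (3.39-fold), Il18r1 was lower in VAT and Il18rap higher in blood. Of 6 tested STAT6-linked genes, Gata3, the factor of type 2 responses, was higher in ST2+ Tregs in all 6 tissues, from 1.63-fold in skin to 2.64-fold in VAT. Ccr4 was higher in blood and spleen, Pparg in spleen and Il4 in lungs. Of 11 STAT2-linked genes, Usp18 was lower in lungs, and Irf9 and Oas1a were lower in VAT ST2+ Tregs. The lists hold genes that other signals also regulate, and Il2ra and Il6st stand in more than 1 of them.

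The genes whose group means ran most like those of each of the 9, by Pearson's r over the means of log2 CPM in 14 groups, were Hsph1 (r = 0.97) and Prdm10 for Stat3, Cdip1 (0.94), Chuk and Mettl13 for Stat5a, Slc35f6 (0.92), Crebzf and Atg4b for Stat5b, and Mapkapk3 (0.96), Galc and Plk3 for Cish. For Socs1 they were Ing1 (0.90), Prr3 and Stub1, for Socs3 Plekha1 (0.94), Sfmbt2 and Tanc1, for Stat2 Med18 (0.91), Rbm6 and Prmt6, for Stat4 Zfand6 (0.84), Mrpl33 and Upk1a, and for Stat6 Armh3 (0.90), Phrf1 and Ppp6r1. Among the 9 genes, the closest pair over group means was Stat3 with Stat5a (r = 0.86), followed by Stat5a with Stat5b (r = 0.80). Over the 67 libraries after group means were removed, Stat5a followed Stat5b (r = 0.56) and Stat3 (r = 0.56), and Stat4 ran against Socs3 (r = -0.58), Stat3 (r = -0.49) and Stat6 (r = -0.48). These libraries share mice, depth and scaling, and the correlations are descriptions.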

How the data were processed

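Tregs were sorted into 14 groups from 5 mice, and the same mouse number marks the same animal. The authors prepared cDNA from about 220 cells a library with SMART-Seq v4 and Nextera XT, which does not keep strand, aligned 58-base reads to GRCm38 with STAR, and deposited raw counts per gene from HTSeq 0.4.1 on Ensembl 91. Positions come from GENCODE M21 on GRCm38. Of 70 libraries, 3 with at most 1000000 counts were left out. Following the order in the study's methods, TMM factors were computed over all annotated genes, genes with at least 1 CPM in 10% of libraries were kept, and protein-coding genes were tested (13179). The first run here took library sizes from the tested genes alone. That departed from the stated order and was replaced after its results had been seen, and it is kept as an alternative.

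Groups were fitted with 1 term each in edgeR 4.0.16 (R 4.3.3), quasi-likelihood test, Benjamini-Hochberg adjustment over all tested genes. A call needed a 1.5-fold change and an adjusted p of at most 0.05, and tests over tissues and the interaction needed the adjusted p alone. The study's voom with quality weights (limma 3.58.1), DESeq2 1.42.0, a mouse block and other settings were alternatives. The fit was tested on simulated data. The 27 same-mouse library pairs of a tissue deviated together from their group means (mean r 0.117, lowest -0.00036, other mice -0.0278, 6444 genes), and the pairing itself comes from the labels. All same-group libraries differed by more than counting noise (lowest chi-square per degree of freedom 6.37). Total counts of 1304560 to 2759926 set the precision of low genes. The members were given by name, and the gene lists and their naming rule (the 3 most alike genes per member, and at most 4 genes a list by adjusted p) were chosen with earlier results of these data known. A gene that this rule names is not reported here.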

Additional observations from a re-analysis of the deposited data

Results flagged for a closer look

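In 11 of 117 groups of 4 or 5 libraries tested over the 9 genes, the highest or lowest library lay far from the others by Dixon's criterion, which chance meets in about 1 in 20 groups. Mouse 1 was highest for Stat5a in skin ST2+ (508 CPM), colon ST2- CD44hi (140.3 CPM) and spleen CD44lo CD62L+ Tregs (202 CPM), for Stat5b in skin ST2+ (534 CPM) and colon ST2- CD44hi Tregs (332 CPM), and for Socs1 in colon ST2- CD44hi Tregs (115 CPM). Mouse 4 was lowest for Stat3 in skin ST2- CD44hi (1043 CPM) and for Stat5a in lungs ST2- CD44hi Tregs (78.8 CPM). Mouse 5 was highest for Socs1 in VAT ST2+ (162 CPM) and VAT ST2- CD44hi Tregs (93.9 CPM), and mouse 2 for Cish in lungs ST2- CD44hi Tregs (231 CPM). The ST2 difference of Stat5b differed between tissues by the interaction test (edgeR, adjusted p = 0.0269).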

How the results depend on the processing

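No value changed sign while called. Of the values of single genes under the alternatives, 2260 stayed on the same side of the threshold, most of them not called in either, 26 moved past it and 27 fell short of it. The count of ST2 calls within tissues, 2 of 54, became 5 with DESeq2, 4 with the mouse as a replicate block, 0 with all 70 libraries and 1 without the libraries of fewer cells. The interaction count, 1, became 0 with voom, with the sorted-cell covariate and without colon. The comparison of ST2- CD44hi with CD44lo CD62L+ Tregs went from 0 to 1 with voom, that of ST2+ CD44hi from 1 to 3 with voom and 2 with the block, and CD44lo CD62L+ Tregs of spleen and lungs from 2 to 1 with all 70 libraries. Neighboring groups that differed went from 1 to 4 with voom and 2 with all 70 libraries. The causes were not tested. The block changed no other call count by over 1.5 times. Leaving out each mouse in turn gave 2 to 3 ST2 calls, 67 to 75 tissue pair calls against 79, 6 to 7 and 5 to 7 tissue effects against 8 and 6, and 0 interactions. Library sizes from the tested genes, the colon, keratinocyte and fewer-cell alternatives were chosen after seeing the data. With the first of these, Cish in blood also passed (log2 fold change 0.59, adjusted p = 0.0403). At these depths and 3 to 5 mice a group, a difference that did not pass may still be present.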
